A study of Mus musculus with 12 samples.

Results

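Immediate early genes are transcribed within minutes of a stimulus without the need for new protein, and in neurons their transcripts rise after synaptic activity, so that they are widely read as a mark of recent neuronal firing. Calcium entry and kinase cascades reach transcription factors such as CREB and SRF that already sit on their promoters, and the products in turn regulate later genes or act at the synapse. In the hippocampus they are known for their response to exploration, learning, stress and seizures. The 10 genes described here, Fos, Fosb, Junb, Egr1, Egr2, Arc, Npas4, Nr4a1, Dusp1 and Btg2, were taken by name from the 55487 genes of the deposited expression table, and 10 of 10 were found there and passed the limit of a mean normalised count of at least 10, as did 18221 genes in all.

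Hippocampi were sequenced from 6 WT mice and 6 mice with a constitutive knockout of the transcription factor USF-1 (USF-1 KO), with 1 library per mouse, to ask how the loss of USF-1 alters hippocampal transcription. Mice of both genotypes had the strain background C57Bl/6JRccHsd, were 3 to 4 months old and came from breeding of heterozygous parents. By the labels, the WT group held 4 females with 2 males, the USF-1 KO group 2 females with 4 males, and mice are named here by genotype and label number, as in WT 522. According to the methods, mice were killed by cervical dislocation. The time of day, the handling before death and the previous tests of these 12 mice are not given in the sources used here, and no group was stimulated to induce these genes.

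Library sizes ran from 21679622 to 32091173 reads on genes. The targeted gene, Usf1, had 842 to 1583 normalised counts in the 6 WT mice and 117 to 163 in the 6 USF-1 KO mice, ranges that do not overlap. Markers of the hippocampus were present in each mouse, with summed normalised counts from 13128 to 19514 for 10 markers of dentate granule cells and from 21809 to 32662 for 9 markers of CA1 pyramidal cells. WT 522 stood apart from the other WT mice in several lists of tissue markers, as given below, and results that it moved are also given without it. It also had the largest mitochondrial share of reads (4.87% against 3.45% to 4.51% in the other 11 mice) and the largest share in the 100 most abundant genes (21.3% against 19.5% to 20.9%), whose part in the results was not tested. In RNA from whole tissue, fewer cells of a type and less RNA per cell cannot be told apart.

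The promoters of these genes carry known sites of activity-dependent factors, and the stretches below show where such letters stand in some of them. Chosen were the genes whose highest WT mouse lay furthest above the average of the other WT mice (Egr2, Fosb, Fos). The remaining stretches are those of the gene most typical of the group (Nr4a1) and of those with the full palindrome (Dusp1, Btg2). Each is the run of 200 bases before the RefSeq gene start in GRCm38.p6, read 5′ to 3′ on the gene's strand, at chr12:85473690-85473889 (+) for Fos, chr7:19310046-19310245 (-) for Fosb, chr10:67535299-67535498 (+) for Egr2, chr15:101266646-101266845 (+) for Nr4a1, chr17:26508473-26508672 (-) for Dusp1 and chr1:134079156-134079355 (-) for Btg2. Capitals mark the cAMP response element (CRE) TGACGTCA, its half-site TGACG on either strand (CGTCA when read on the gene's strand), and the E-box CACGTG, which USF-1 binds.
Fos: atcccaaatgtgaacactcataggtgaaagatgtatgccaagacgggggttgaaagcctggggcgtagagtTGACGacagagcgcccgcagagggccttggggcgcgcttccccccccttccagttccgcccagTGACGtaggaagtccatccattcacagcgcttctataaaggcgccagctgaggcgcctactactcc
Fosb: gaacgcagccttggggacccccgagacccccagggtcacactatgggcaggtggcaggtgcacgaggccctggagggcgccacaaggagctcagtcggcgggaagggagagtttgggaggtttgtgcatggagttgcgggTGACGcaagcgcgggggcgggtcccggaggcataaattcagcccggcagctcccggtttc
Egr2: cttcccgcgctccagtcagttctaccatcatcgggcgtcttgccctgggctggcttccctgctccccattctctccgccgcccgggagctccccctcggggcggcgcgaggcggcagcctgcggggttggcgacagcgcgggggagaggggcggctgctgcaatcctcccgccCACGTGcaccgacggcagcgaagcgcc
Nr4a1: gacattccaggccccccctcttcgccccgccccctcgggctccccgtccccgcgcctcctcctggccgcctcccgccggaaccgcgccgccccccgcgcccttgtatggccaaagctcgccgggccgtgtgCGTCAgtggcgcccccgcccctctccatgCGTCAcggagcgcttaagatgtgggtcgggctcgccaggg
Dusp1: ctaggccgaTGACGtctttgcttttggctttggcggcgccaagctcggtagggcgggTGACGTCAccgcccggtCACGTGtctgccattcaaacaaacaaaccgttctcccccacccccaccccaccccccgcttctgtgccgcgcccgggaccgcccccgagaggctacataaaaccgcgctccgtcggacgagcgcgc
Btg2: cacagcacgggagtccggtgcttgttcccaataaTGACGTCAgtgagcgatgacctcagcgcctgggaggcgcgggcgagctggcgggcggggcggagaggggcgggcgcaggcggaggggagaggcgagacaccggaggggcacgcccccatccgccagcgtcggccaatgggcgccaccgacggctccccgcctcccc
Letters were counted on both strands in windows from 250 bases before to 50 bases after the RefSeq start, which were at hand for 8 of the 10 genes and not for Arc or Egr1. The half-site TGACG was found in 7 of the 8 windows, all but that of Egr2, against 20.8% of 32851 promoter windows of the same length. Fos holds it from -129 to -125 and from -66 to -62, counted from the gene start, and Fosb from -60 to -56. The full CRE, which contains the half-site on both strands, was found in Dusp1 (from -143 to -136) and Btg2 (from -166 to -159), against 1.79% of promoter windows. An E-box CACGTG was found in Egr2 (from -27 to -22) and Dusp1 (from -126 to -121), against 7.15% of windows. None of the 8 windows held the EGR site GCGTGGGCG (0.612% of windows), the AP-1 site TGANTCA (7.81%) or a CArG box, the site of SRF (1.63%). Sites outside these windows were not searched. A TATA box TATAAA on the gene strand was found in Fos and Junb (8.32%). It lay from -33 to -28 in Fos and past the gene start, from 1 to 6, in Junb. The RefSeq start lies inside the span that the expression table gives the gene for Fosb, Egr2, Npas4, Nr4a1 and Dusp1. It lies outside that span for Junb and Btg2 and at its first base for Fos. These matches describe letters in a window and say nothing of whether a factor was bound there.

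The members form a short and compact set of genes. Their median span was 5562 bases, against 25525 bases for tested protein-coding genes. The shortest, Junb, is a single exon of 1809 bases at chr8:84976910-84978718 (GRCm38), and the longest span, 56539 bases, is that of Dusp1. The Dusp1 span overlaps 640 bases of Ergic1, a gene on the opposite strand with a mean of 2888 normalised counts, and since it is not given whether the counting used strand, reads of both genes in that overlap cannot be told apart. Levels were compared between genes per kilobase of exon over the 12 mice. Arc was highest with 1552 ± 470 normalised counts per kilobase (SD, n = 12), followed by Egr1 with 1063 ± 303, Junb with 665 ± 198 and Nr4a1 with 648 ± 188. Far below came Fos (172 ± 88.6), Btg2 (164 ± 28.6), Dusp1 (132 ± 37.3) and Npas4 (116 ± 50.1), and at the bottom Fosb (41.3 ± 24.9) and Egr2 (33.4 ± 36.0). In this order Junb and Nr4a1, Fos and Btg2, Dusp1 and Npas4, and Fosb and Egr2 are neighbours that differed by less than the SD of either gene. Without WT 522 Btg2 (160.3 ± 26.0) came just above Fos (149.9 ± 45.8), Fosb (34.3 ± 5.09) and Egr2 (23.6 ± 12.8) remained lowest, and the order of the others was kept.

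Fos, Fosb and Junb encode subunits of the AP-1 dimer, which binds the TPA response element. In WT mice Fos had 204 normalised counts at the lowest, 403 at the median and 980 at the highest, and in USF-1 KO mice 223, 355 and 531. The highest WT value was that of WT 522, whereas the other 5 WT mice lay between 204 and 426, inside the range of the USF-1 KO mice apart from the lowest. Fosb, whose transcript also yields the long-lived isoform ΔFosB, had 161, 216 and 743 in WT mice and 186, 224 and 269 in USF-1 KO mice. WT 522 alone lay far above the rest for Fosb, and without it the highest of the remaining 11 mice had only 1.67 times the count of the lowest. Junb had 814, 991 and 1986 in WT mice and 880, 1190 and 1685 in USF-1 KO mice. Here the gap was smaller, and WT 522 lay 17.8% above the next mouse, KO 530.

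Egr1 and Egr2 encode zinc finger factors of the EGR family, of which Egr1 (Zif268) is the classical marker of hippocampal plasticity. Egr1 had 3422 normalised counts at the lowest, 4440 at the median and 8545 at the highest in WT mice, and 3785, 4474 and 5542 in USF-1 KO mice. The highest WT value was again that of WT 522, 54.2% above the next mouse, while the medians of the genotypes were nearly equal. Egr2 was the most variable of the 10 genes, with 15.1, 70.7 and 478 in WT mice and 33.0, 73.7 and 155 in USF-1 KO mice. Its highest value, in WT 522, was 31.6 times its lowest, in WT 547, and 10.2 times separated the highest from the lowest of the remaining 11 mice.

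Arc and Npas4 are the neuronal members, Arc a regulator of AMPA receptor trafficking at the synapse and Npas4 a transcription factor induced by calcium entry in neurons. Arc had 3037, 4796 and 7766 normalised counts in WT mice and 2924, 4388 and 6377 in USF-1 KO mice, in the order lowest, median, highest. WT 522 lay 21.8% above KO 530, and WT 523 followed with 6135. Npas4 had 277, 417 and 886 in WT mice and 191, 497 and 859 in USF-1 KO mice. KO 484 came within 3.13% of WT 522 for Npas4, so that the upper end of both genotypes was alike for this gene, and the lowest mouse was KO 488.

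Nr4a1 encodes the orphan nuclear receptor Nur77, Dusp1 a phosphatase that inactivates MAP kinases, and Btg2 an antiproliferative cofactor of mRNA deadenylation. Nr4a1 had 1710, 1962 and 3963 normalised counts in WT mice and 1788, 2146 and 2898 in USF-1 KO mice. Dusp1 had 342, 389 and 742 in WT mice and 313, 372 and 545 in USF-1 KO mice. Btg2 had 369, 397 and 575 in WT mice and 347, 477 and 552 in USF-1 KO mice. WT 522 was the highest mouse for these genes too, by 36.7% for Nr4a1, 36.2% for Dusp1 and 4.13% for Btg2, the member with the narrowest range (1.65 times from the lowest to the highest mouse).

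**Figure D1:**
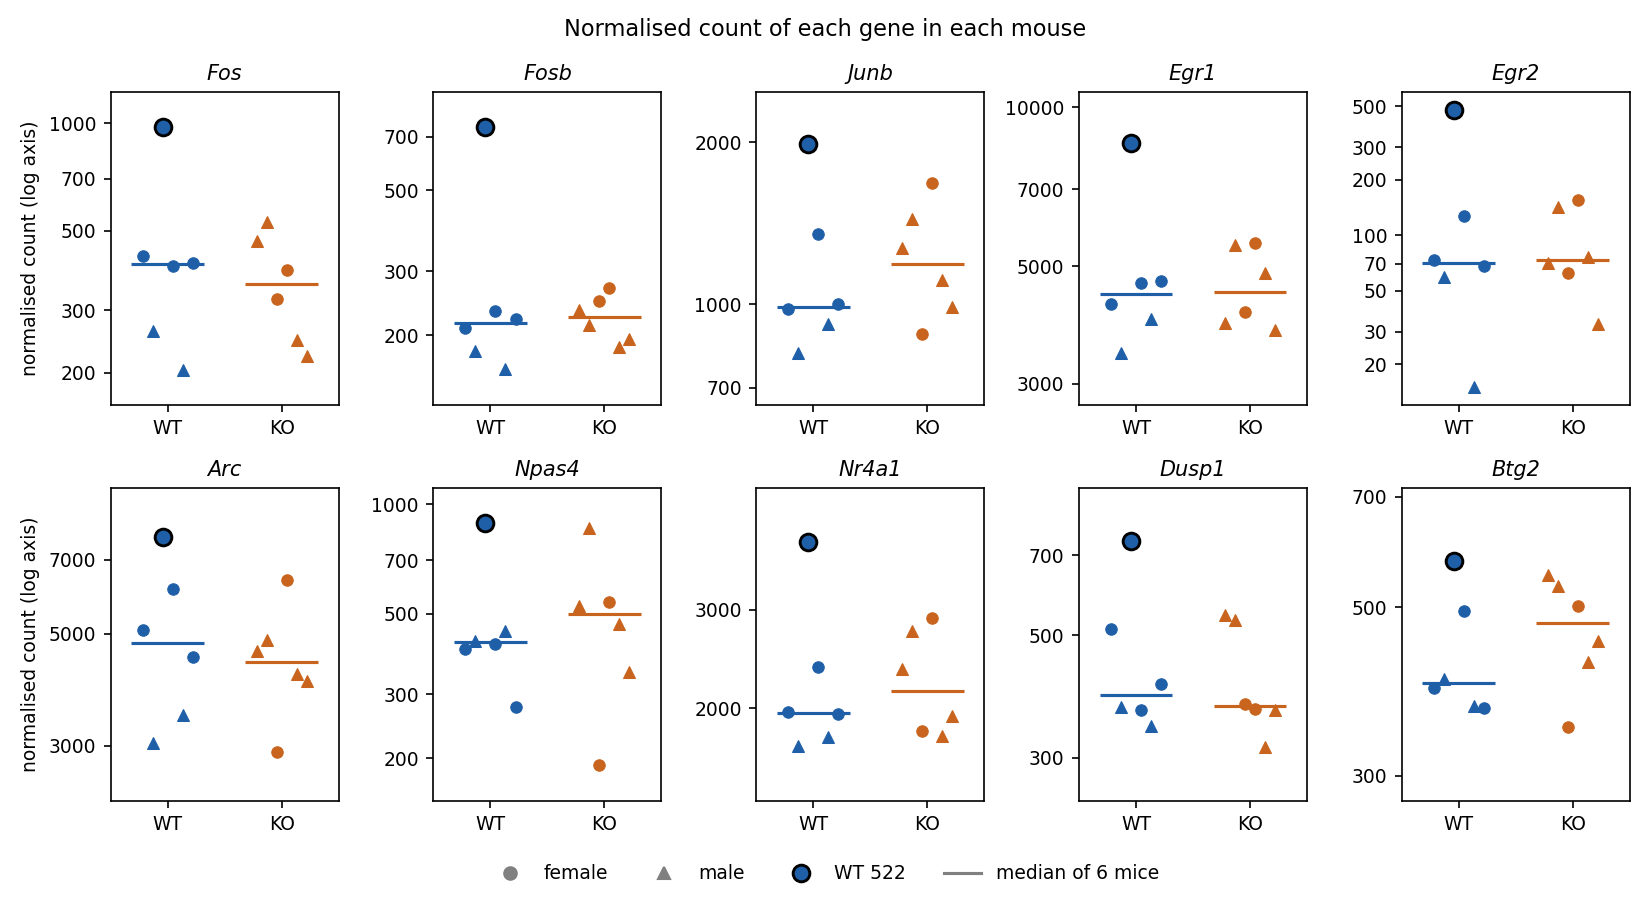
Normalised counts (vertical axis, logarithmic, with its own range for each gene) of the 10 immediate early genes in 6 WT (blue) and 6 USF-1 KO (orange) mice, circles for females and triangles for males. Lines mark the medians, and WT 522, outlined in black, is the highest of the 12 mice in each panel, from 1.65 times the lowest mouse for Btg2 to 31.6 times for Egr2.

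WT 522 had the highest normalised count of the 12 mice for 10 of the 10 members, and for 8 of them when libraries were rescaled to equal totals, where KO 484 led for Npas4 (865 against 860) and KO 482 for Btg2 (562 against 558). The same mouse was the highest for 2948 of the 18221 genes tested (16.2%), more than any other mouse. Set against the average of its 5 WT companions, its excess was 6.98-fold for Egr2, 3.69-fold for Fosb, 2.89-fold for Fos, 2.26-fold for Npas4, 2.04-fold for Egr1, 2.03-fold for Nr4a1, 1.96-fold for Junb, 1.85-fold for Dusp1, 1.75-fold for Arc and 1.42-fold for Btg2. Thus the genes with the lowest level per kilobase, Egr2 and Fosb, had the largest excess, and the most abundant, Arc, one of the smallest. On the scale of log2(normalised count + 1), the 10 genes in WT 522 differed from the average of its 5 WT companions by a median of 1.03 (range 0.51 to 3.05), against -0.00 over all tested genes. It was 0.95 against the mean of all 11 other mice and 0.92 against the 3 other female WT mice. By this difference 9 of the 10 members stood among the top 5% of tested genes and 4 (Egr2, Fosb, Fos and Npas4) among the top 1%. A single mouse has no replicate, so these differences carry no test.

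No other mouse stood out to this extent. Averaged over the 10 genes, the deviation from the genotype mean was 1.09 on the log2 scale in WT 522, 0.39 in KO 484, 0.33 in KO 530, 0.13 in KO 482 and 0.12 in WT 523. At the lower end it was -0.58 in WT 547, -0.38 in WT 493 and -0.35 in both KO 488 and KO 564. The second-highest mouse was KO 530 for 6 genes (Fosb, Junb, Egr1, Egr2, Arc and Nr4a1), KO 484 for Fos and Npas4, and KO 482 for Dusp1 and Btg2. The second rank was thus held by a USF-1 KO mouse for 10 genes and the third for 9 (for Arc, the third was WT 523). The lowest mouse was a WT mouse for 6 genes (WT 493 for Junb, Egr1 and Nr4a1, WT 547 for Fos, Fosb and Egr2) and a USF-1 KO mouse for 4. The share of all tested genes with such ranks was not counted. As the 10 genes varied together, as given below, these ranks are no evidence on genotype. Each of WT 493 and KO 564 lay below the mean of the other mice of its genotype for 10 of 10 genes, and KO 484 and KO 530 each lay above it for 9.

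**Figure D2:**
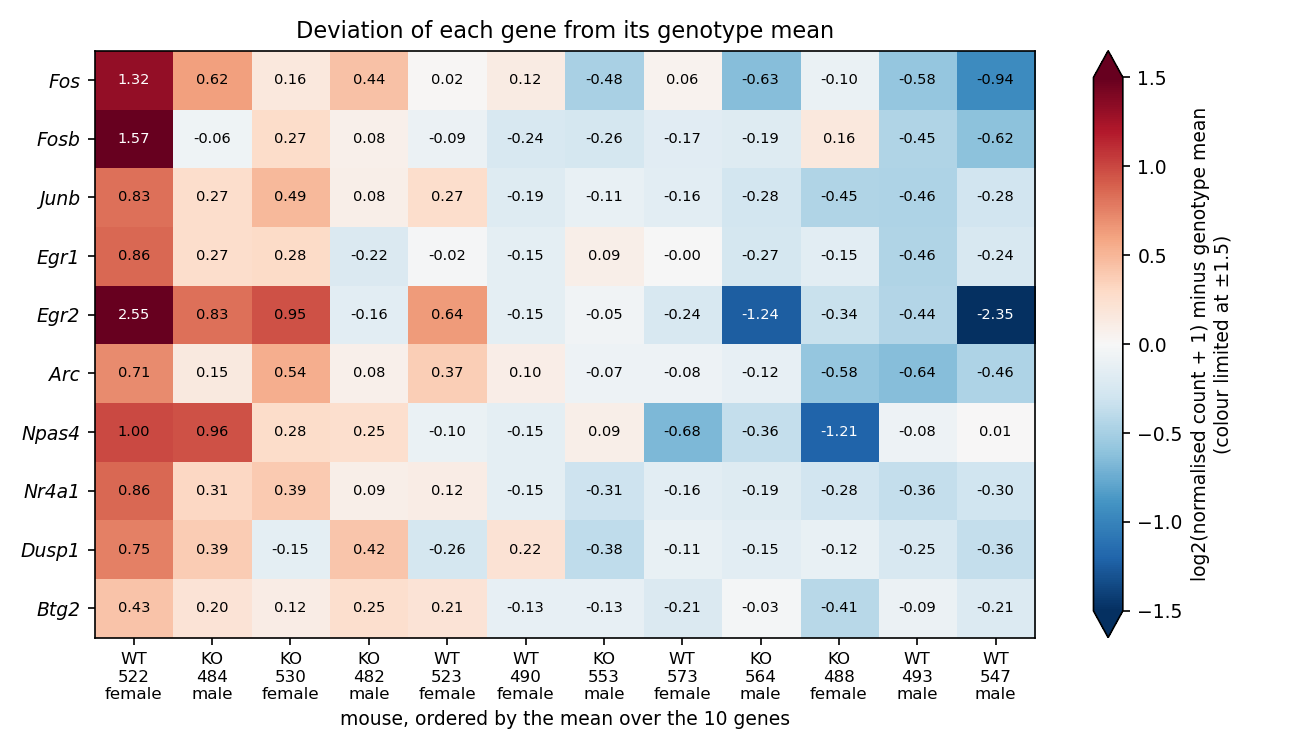
Deviation of each gene (rows) from the mean of its genotype on the scale of log2(normalised count + 1), in each mouse (columns), ordered by the mean over the 10 genes from 1.09 in WT 522 to -0.58 in WT 547. The first column is above 0 in each row, from 0.43 for Btg2 to 2.55 for Egr2.

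The neighbouring gene lists placed WT 522 as follows. Of 36 other rapid response genes tested, WT 522 was the highest of the 12 mice for 18 (16.2% of all tested genes). It lay above each other WT mouse for 22 (26.6% of all tested genes), with a median log2 difference of 0.37. The largest were Ccn1, a secreted matricellular protein, with 303 normalised counts against 64.6 to 82.8 in the other WT mice, Klf4 (174 against 49.9 to 93.9), the EGR family gene Egr4 (697 against 249 to 352) and Trib1 (577 against 214 to 281). Of 23 delayed response genes, WT 522 was the highest for 8 (16.2% of all tested genes), with a median log2 difference of 0.22. Nptx2, a pentraxin that clusters AMPA receptors (1187 against 406 to 616), the scaffold gene Homer1 (4929 against 2264 to 2591), the prohormone convertase Pcsk1 (1038 against 452 to 721) and Tpbg (142 against 70.0 to 135) differed most. Among 38 transducers between synaptic activity and transcription, the median difference was 0.10. WT 522 lay above each other WT mouse for 17 of them (26.6% of tested genes) and below each for 10 (25.3%). Mef2c (8361 against 2859 to 4011) and Rps6ka2 (2185 against 1031 to 1375) differed most, both above the other WT mice. Rps6ka3 (1353 against 851 to 1040) lay above them too, and the calcineurin subunit Ppp3ca (31303 against 39714 to 49608) below them. By the medians, the excess thus became smaller from the immediate early genes to the delayed genes and to the transducers.

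Lists that respond to other stimuli were compared in the same way. The clock and glucocorticoid lists share genes with the rapid response list, among them Per1 (in both) and Npas2 (clock). Of 18 clock genes, WT 522 was the highest for 5, with a median log2 difference of 0.14, above that of the transducers, and those that differed most were Per2 (1728 normalised counts against 858 to 1135 in the other WT mice), Per1 (3661 against 2013 to 2820), Npas2 (1101 against 674 to 816) and Ciart (243 against 143 to 200). For 19 glucocorticoid-induced genes the median difference was -0.02. These moved both ways, with Cdkn1a (393 against 118 to 216), Per1 and Mertk (1171 against 651 to 978) above the other WT mice and Plin4 (28.4 against 59.1 to 117) below them. For 12 heat shock genes the median was -0.01. Dnajb1 (1320 against 977 to 1150) and Dnajb5 (4659 against 3503 to 4598) lay just above the other WT mice, Hspa5 (6871 against 4477 to 7133) within them and Hsp90aa1 (14147 against 14768 to 16116) below them.

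Markers of neighbouring tissue and of other cell types moved with WT 522 as well. For 11 of 11 markers of cerebral cortex, the list of which includes the immediate early gene Nr4a2, WT 522 lay above each other WT mouse (26.6% of tested genes), with a summed normalised count of 12460. The range was 6415 to 7785 in the remaining WT mice and 6282 to 8895 in the USF-1 KO mice. Without Nr4a2 the sum was 10258 in WT 522 and 4983 to 7094 in the other 11 mice. The defining markers Tbr1 and Cux2 had 2021 and 2282 counts in WT 522, and in the other WT mice 1078 to 1316 and 600 to 1227. For 12 of 12 oligodendrocyte markers WT 522 lay below each other WT mouse (25.3% of tested genes), with a sum of 92032 against 154478 to 199862, though inside the range of the USF-1 KO mice (79448 to 120853). Sums of markers of the dentate gyrus (13128 against 13978 to 18741), of choroid plexus (4278 against 5611 to 241291), of ependyma (351 against 644 to 1724) and of thalamus (2250 against 2365 to 7386) were lower than in each other WT mouse. Choroid plexus sums were high in WT 490 (92744) and WT 493 (241291) alone. In the USF-1 KO mice the sums were 3756 to 6369 for choroid plexus, 292 to 1085 for ependyma and 2104 to 7709 for thalamus. These ranges held WT 522, whereas the dentate range (13410 to 19514) lay above it. Sums of markers of microglia (13454 against 10005 to 11621) and astrocytes (144908 against 109111 to 130563) were higher than in each other WT mouse. So was the sum for excitatory neurons (245211 against 196162 to 242702), with 185210 to 277543 in the USF-1 KO mice. Camk2a alone gave 137422 of the excitatory sum, and the median log2 difference of the 10 excitatory markers was -0.01. Of these markers, 4 lay above and 3 below each other WT mouse (26.6% and 25.3% of tested genes). Of the 10 dentate markers, 2 lay above and 6 below each other WT mouse. Of 11 CA3 and CA2 markers, 1 lay above and 6 below, with a median log2 difference of -0.43. Their sum (14086) lay within the other WT mice (12836 to 14416). The microglia and astrocyte sums of WT 522 were the highest of the 12 mice. No tested marker of these lists was at 0 in all 12 mice, and their part in the excess of the immediate early genes was not tested.

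The profiles of these lists over mice were also set beside that of the 10 genes. The mean profile of the cortex markers over mice had a Pearson r of 0.38 with that of the 10 genes over 12 mice and of -0.43 over 11 mice, given as a description. For the other rapid response genes the values were 0.91 and 0.76, and for the microglia markers 0.82 and 0.65. Oligodendrocyte markers gave -0.69 and -0.17, and ependyma markers -0.54 and -0.25. CA3 and CA2 markers gave -0.49 and 0.12, dentate granule markers 0.03 and 0.59, and blood markers -0.37 and -0.66. Several of these values thus depended on WT 522. These lists share libraries and depth with the members.

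**Figure D3:**
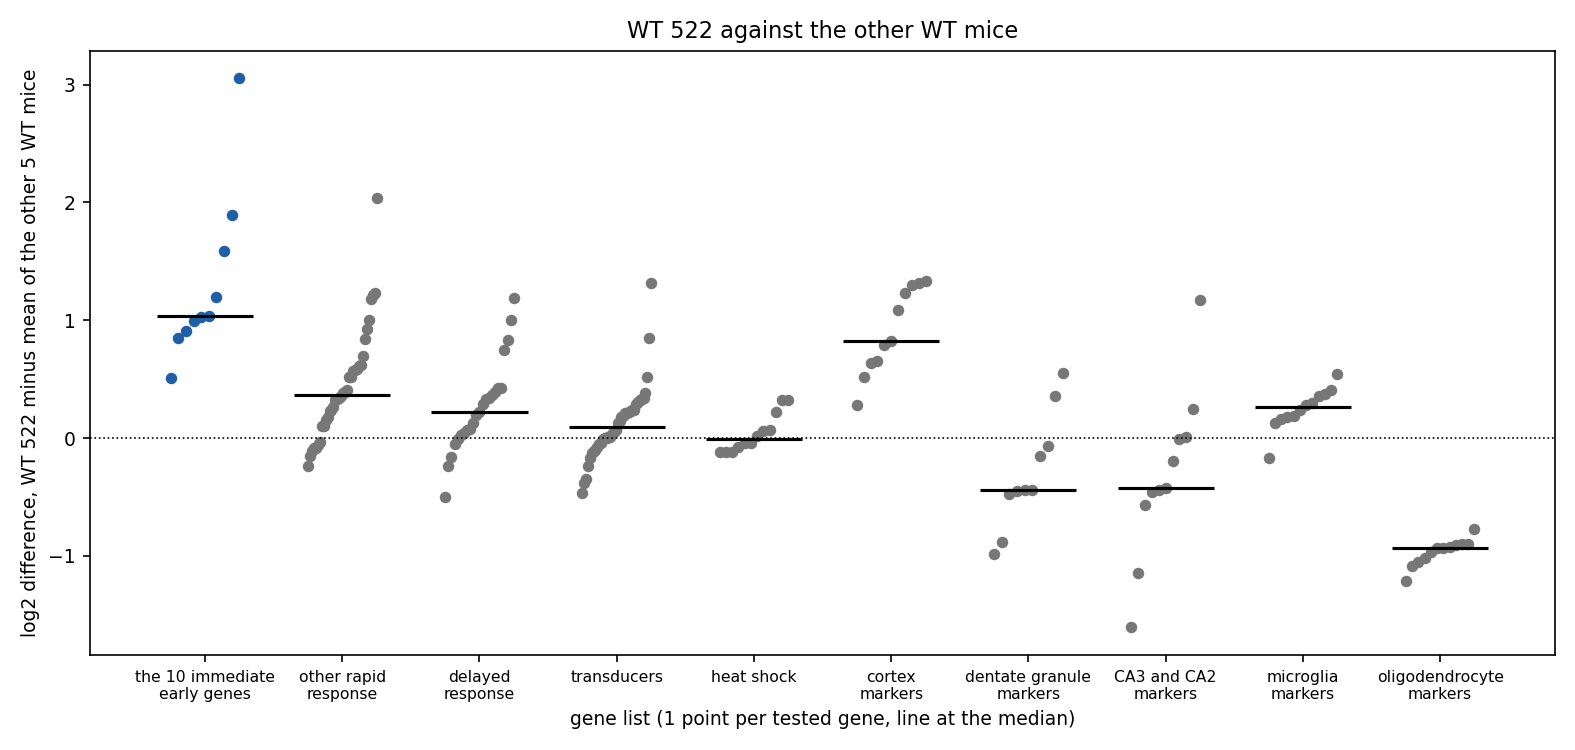
Difference of WT 522 from its 5 WT companions on average (vertical axis, log2 scale) for each tested gene (points) of 10 gene lists (horizontal axis), with lines at the list medians. The median was 1.03 for the immediate early genes (blue), 0.37 for other rapid response genes, 0.22 for delayed genes, 0.83 for cortex markers and -0.93 for oligodendrocyte markers.

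The 10 genes varied together from mouse to mouse. After the genotype means were removed, Pearson r was above 0 for 45 of 45 pairs, with a median of 0.78 and a range from 0.44 (Fosb and Npas4) to 0.96 (Junb and Nr4a1), and the median Spearman rho was 0.68. Over all pairs of the 12677 genes with a mean of at least 100, the median r was 0.00. In two-sided permutation tests with 100000 resamples, adjusted by Benjamini-Hochberg over these 45 pairs, 40 pairs passed 0.05 by r and 28 by rho. The smallest r among those 40 was 0.59, which 5.90% of all gene pairs reached. The adjustment covers only these pairs, and the genes were chosen with earlier results of these data known, so that the count is no independent evidence. A first principal component held 78.1% of the variance of the 10 standardised genes.

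Much of this strength came from WT 522. Without it the median r was 0.60 (median rho 0.55), 44 of 45 pairs stayed above 0, 9 passed the threshold in place of 40, and the first component held 60.9%. Without the 2 mice farthest from the median profile, WT 522 and KO 484, the median r was 0.57, 43 pairs were above 0 and 5 passed. Within the 6 USF-1 KO mice alone, where WT 522 plays no part, the median r was 0.63 and 43 of 45 pairs were above 0. Within the 6 WT mice it was 0.86, and within the 5 WT mice other than WT 522 it was 0.60. The median r was thus lower but above 0 without the extreme mouse, also within each genotype. Pairs were not tested within a genotype, and no median over all gene pairs was computed there.

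The pairs differed in how they held. Junb and Nr4a1 (r = 0.96, rho = 0.87, permutation p = 1e-05, the smallest that 100000 resamples can give) kept an r of 0.94 without WT 522 and of 0.94 without the 2 farthest mice. Junb and Arc did likewise, with r = 0.94 and rho = 0.96 over 12 mice, 0.92 without WT 522 and 0.93 without the 2 farthest mice. Fos and Dusp1 (r = 0.89) kept 0.79 without WT 522. In contrast, Fosb and Egr1 fell from 0.85 to 0.40, Egr1 and Dusp1 from 0.59 to 0.06, and Fosb and Npas4 from 0.44 to -0.22, so that these pairs rested on WT 522. Against the mean of the other 9 genes, Nr4a1 was the most typical member (r = 0.96, and 0.91 without WT 522), followed by Junb (0.93 and 0.88). Npas4 (0.67 and 0.47) and Dusp1 (0.75 and 0.47) were the least typical. Npas4 was high in KO 484 and low in KO 488 beyond the other genes, and Dusp1 was high in KO 482 and WT 490 but not in KO 530.

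**Figure D4:**
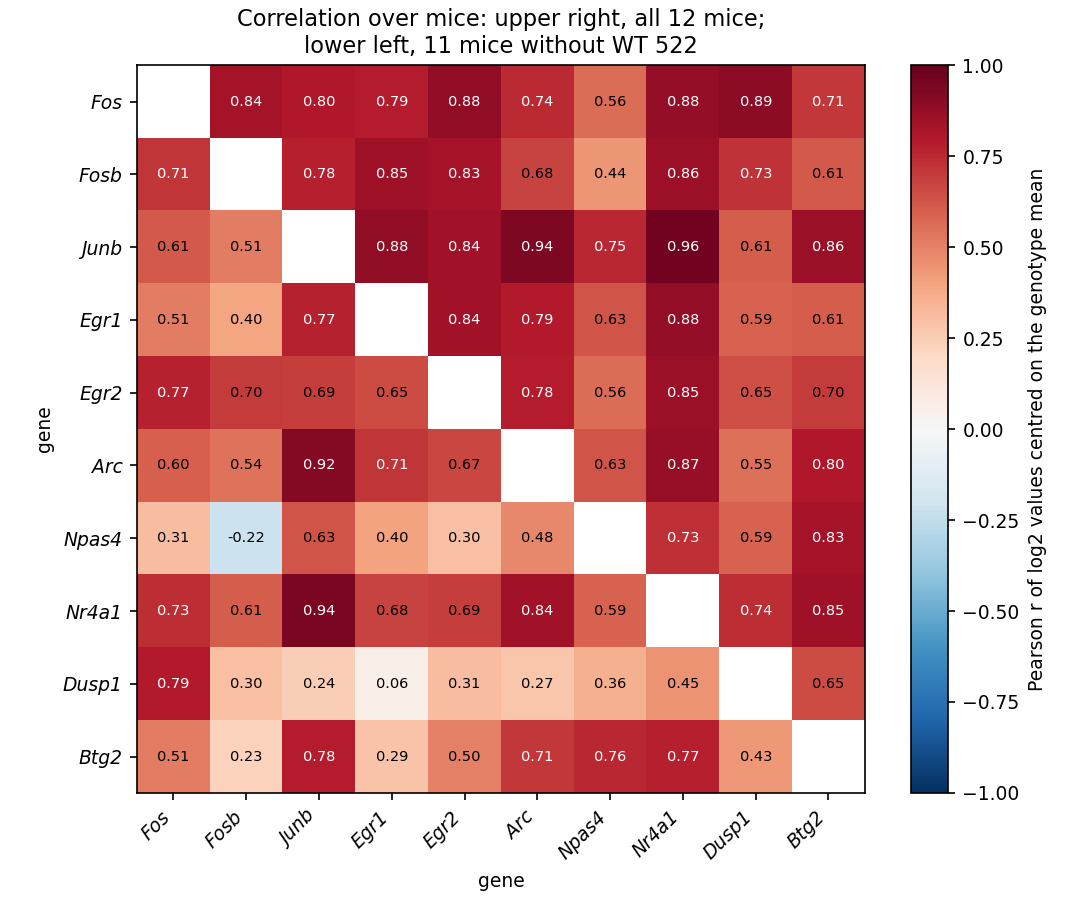
Pearson r of each pair of the 10 genes over mice, from log2 values centred on the genotype mean, with all 12 mice in the upper right triangle and the 11 mice other than WT 522 in the lower left. The median fell from 0.78 above the diagonal to 0.60 below it, while Junb with Nr4a1 and Junb with Arc stayed above 0.9.

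Genes outside the list whose pattern was most like the mean profile of the 10 were sought among 14272 other genes with a mean of at least 50. Among the closest over the 12 mice were Znfx1 (r = 0.93), Syne4, E4f1, Dio2, Pou2f2, Frmd6, Ttc37, 1700016P03Rik and Oscar (r = 0.89), and 123 genes (0.862%) reached 0.8. Each of these 9 was highest in WT 522. Dio2, the deiodinase that activates thyroid hormone, had 2134 normalised counts there, while the remaining WT mice lay between 898 and 1271. The value of 1700016P03Rik was 296 against 43.4 to 122. Without WT 522 other genes came first, namely Slc30a7 (r = 0.91), Dus4l, Zfp944, Kdm8 and Zfp646 (r = 0.88), and 32 genes reached 0.8. Of the first 9, r without WT 522 ranged from 0.67 (Oscar) to 0.80 (E4f1), and none of the 14 stands in a list used here.

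The spread of these genes between mice was wide. The SD within genotypes, on the log2 scale, had a median of 0.43 over the 10 genes against 0.15 over all tested genes, from 0.25 for Btg2 to 1.26 for Egr2, and it was 0.30 against 0.14 without WT 522. The SD was larger in WT than in USF-1 KO mice for 9 of the 10 genes, Npas4 excepted (53.3% of tested genes had the larger SD in WT mice), but for only 3 of 10 (Fosb, Egr2 and Arc) when WT 522 was left out of the WT group. A two-sided exact permutation test of the absolute deviations from the genotype median was run with all 924 ways to split the mice. After Benjamini-Hochberg adjustment over all tested genes it called 0 of 18221 genes (0%) and 0 of the 10 members. The smallest p that these splits can give is 0.0022, so that a call needed many genes at that floor together. The adjusted result therefore cannot show whether the spread differed. No member had an unadjusted p under 0.05 (range 0.361 to 0.972), against 4.79% of tested genes. No other tool was run for the spread.

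Against that spread, none of the 10 genes passed the test of genotype. In limma on log2(normalised count + 1), with adjustment over all tested genes, 164 of 18221 genes passed an adjusted p of 0.05 (0.900%) and 0 of 10 members did, nor did any in edgeR (151 genes called) or DESeq2 (611 genes called). At an unadjusted p under 0.05, limma called 13.5% of tested genes and 0 members. The members' log2 fold changes, USF-1 KO minus WT, lay between -0.18 (Fos) and 0.11 (Btg2), 7 below 0 and 3 above, with a median of -0.04 against -0.00 over all tested genes. For Egr2 the estimate depended on the tool, -0.03 in limma, -0.60 in edgeR and -0.61 in DESeq2. The members' limma adjusted p ranged from 0.752 to 0.997, and two-sided exact permutation p from 0.439 to 0.994. These tests do not show that the genotypes were equal. The 95% interval of the difference was -0.16 to 0.39 for Btg2, the narrowest, which bounds the fold between 0.893 and 1.31. It was -0.43 to 0.34 for Egr1, -0.59 to 0.35 for Arc, -0.86 to 0.51 for Fos and -1.36 to 1.30 for Egr2, so that for Egr2 even a 2.46-fold difference lay inside it. As 1 library was made per mouse, p-values measure the spread between mice.

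Leaving out WT 522 changed the sign of 7 of these differences. Without it the log2 fold change was above 0 for 10 of 10 genes, from 0.02 (Arc) to 0.48 (Egr2). The median was 0.17, against 0.003 over all tested genes, and the limma adjusted p lay between 0.431 and 0.972. In this fit 516 genes were called, 0 of them members. As the 10 genes varied together, their shared sign is not 10 independent results. Junb moved from 0.10 to 0.26 (95% interval -0.08 to 0.61), Nr4a1 from 0.02 to 0.19 (-0.10 to 0.47) and Btg2 from 0.11 to 0.20 (-0.05 to 0.45). With sex as a covariate, 8 of 10 were above 0. Without KO 564, 6 of 10 were above 0 (median 0.033), and without KO 488, 5 of 10 (median 0.016). The direction of a genotype difference in these genes therefore depended on single mice and on the model.

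**Figure D5:**
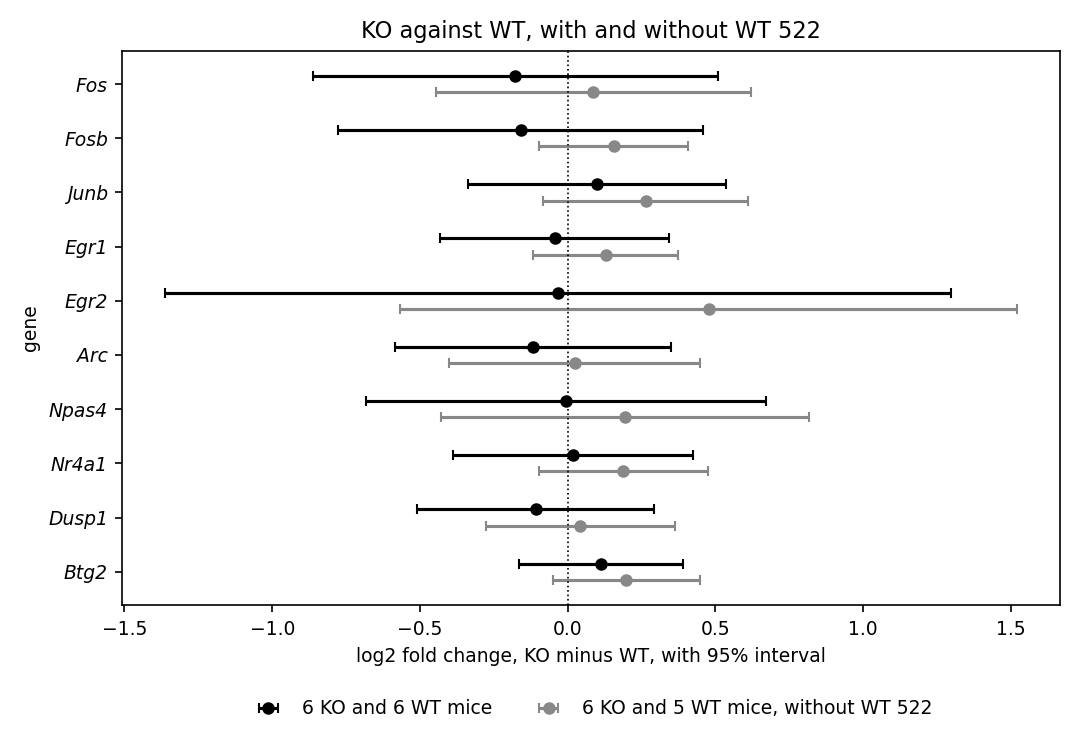
Log2 fold change of each gene, USF-1 KO minus WT (horizontal axis), with 95% intervals, from limma with all 12 mice (black) and without WT 522 (grey). Each interval includes 0. Without WT 522 the 10 points lie between 0.02 and 0.48.

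Among the other rapid response genes, 1 of 36 passed the test. Jun, the AP-1 subunit that pairs with Fos, rose from 1915 ± 185 normalised counts in WT mice to 2364 ± 166 in USF-1 KO mice (mean ± SD, n = 6 each), a log2 fold change of 0.31 ± 0.06 (SE, adjusted p = 0.042, limma). With sex as a covariate its adjusted p was 0.099. It was above 0.05 in 8 of the 12 fits that left out a mouse, and reached 0.123 without WT 490. In WT 522 it had 1788 counts, within the 1701 to 2192 of the other WT mice, unlike the 10 members. Without WT 522, Jun and Jund (0.26, adjusted p = 0.047) passed. Of 23 delayed response genes and 38 transducers, 0 passed in limma, with 0 and 6 at an unadjusted p under 0.05 (13.5% of tested genes). Likewise 0 of both lists passed in edgeR, and 0 and 1 in DESeq2. The medians of their log2 fold changes were 0.05 and 0.09, with 17 and 29 genes above 0. Over all tested genes, 9069 of 18221 were above 0.

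Sex was tested with genotype in the model, since the labels give unequal numbers of females and males in the genotypes. Of the 10 genes, 9 had a higher fitted value in females (Btg2 by only 0.00), Npas4 excepted, with a median log2 difference (female minus male) of 0.30 against -0.00 over all tested genes. This median was 0.19 without WT 522 and 0.50 without KO 488. Adjusted over all tested genes, limma called 0 of them and 10 of 18221 genes (0.0549%). Egr2 alone had an unadjusted p under 0.05 (0.048, adjusted p = 0.764), against 6.45% of tested genes, with a log2 difference of 1.28 ± 0.58 (SE) and means of 161 counts in 6 females and 66.1 in 6 males. The female mean was 97.0 without WT 522. For 7 of the 10 genes (Fos, Fosb, Junb, Egr1, Egr2, Arc and Nr4a1) both male WT mice lay below all 4 female WT mice, an order that 8.30% of tested genes showed. In USF-1 KO mice the 4 males lay below both females for 1 gene, Fosb, an order that 6.02% of tested genes showed. Leaving out KO 488, the lowest of the 6 females for 8 of the 10 genes (Fosb and Dusp1 excepted), raised the number of members with an unadjusted p under 0.05 from 1 to 6, with a lowest adjusted p of 0.118. Without WT 522 the number was again 1, but the gene was Fosb, with a log2 difference of 0.35 ± 0.08 (SE, adjusted p = 0.366, unadjusted 0.00076), and Egr2 had 0.94 ± 0.45. The number was 0 without WT 493, WT 523, WT 547, KO 530, KO 553 or KO 564. It was also 0 with a pseudocount of 5 or with a mean of at least 50.

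The female minus male difference was smaller in USF-1 KO than in WT mice for 10 of 10 genes, with a median interaction of -0.59 on the log2 scale against 0.01 over all tested genes. In limma the interaction was called for 0 of 18221 genes (0%) and 0 members. Unadjusted, 1 member, Arc, lay under 0.05 (interaction -0.86 ± 0.37 (SE)), against 3.45% of tested genes. Without WT 522, one of the 4 female WT mice, the median was -0.37 and no member had an unadjusted p under 0.05. The groups behind this term held only 2 male WT and 2 female USF-1 KO mice.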

How the data were processed

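Hippocampal RNA of 12 mice was sequenced and analysed. The deposited signal holds reads per gene, which the authors scaled in DESeq2 with 1 size factor per library. Per the labels' processing notes, STAR 2.5.0a, edgeR 3.22.2 and the build mm10 were used. The read counter, annotation and strandedness are not given in the sources used here. In each library 100% of the values were whole multiples of a single step (tolerance 0.01), so reads were recovered. Gene coordinates equalled GENCODE M21 for 54821 genes (98.8%), and exon lengths were taken from it. Sex was taken from the labels, which differ from a figure legend of the study.

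Genes averaging 10 or more normalised counts were tested with limma 3.58.1 (R 4.3.3, mean-variance trend) on log2(normalised count + 1), two-sided, and called at 0.05 after Benjamini-Hochberg adjustment. Fold changes on this scale understate the change of low genes. edgeR 4.0.16 and DESeq2 1.42.0 were run on recovered reads. Sex and its interaction with genotype were tested in limma. Spread was tested by exact permutation and correlations by permutation (Python 3.11.15, numpy 2.4.6). The steps were tested on simulated data. Promoter sequences are those of RefSeq for GRCm38.p6. Listed symbols that the table spells differently (Cyr61, Ctgf, Nov, Mkl1 and Mkl2) were matched as Ccn1, Ccn2, Ccn3, Mrtfa and Mrtfb. Named were the 10 members, Usf1, genes of the rapid, delayed, transducer, glucocorticoid, clock and heat shock lists that passed the threshold or were among the 4 of a list that differed most in WT 522, the genes of most similar pattern (1 of which is not reported here), and tissue markers. Jund and Ergic1 were chosen after their values were seen. The members and lists were chosen with earlier results of these data known.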

Additional observations from a re-analysis of the deposited data

Results flagged for a closer look

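Within each group of 6 mice, the highest or lowest value was compared with its nearest neighbour by Dixon's ratio (critical value 0.625), which chance exceeds in about 1 of 20 groups. In WT mice 6 of the 10 immediate early genes exceeded it, each through a high value in WT 522, namely Fos (980 normalised counts), Fosb (743), Egr1 (8545), Egr2 (478), Npas4 (886) and Nr4a1 (3963). Junb, Arc, Dusp1 and Btg2 did not, and in USF-1 KO mice 0 of 10 did. Of all 18221 tested genes, 9.18% exceeded it in WT mice, and 4.00% did so through a high value in WT 522. The 10 genes were chosen with earlier results of these data known and varied together, so that these 6 are no independent evidence.

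Among the other genes named, WT 522 stood apart in the same way for Ccn1 (303), Klf4 (174), Egr4 (697) and Trib1 (577) of the rapid response list, for Nptx2 (1187) and Homer1 (4929) of the delayed list, for the transducers Mef2c (8361) and Rps6ka2 (2185), for Cdkn1a (393), and for the clock genes Per2 (1728) and Npas2 (1101). It did so as well for Znfx1 (1879), Syne4 (167), Dio2 (2134), Frmd6 (928), 1700016P03Rik (296) and Oscar (87.5). These genes were named because they differed most in WT 522 or followed the pattern of the 10 genes, so that their number is no support. WT 493 had the lowest Usf1 of the WT mice (842 normalised counts).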

How the results depend on the processing

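No member passed the test of genotype, including in edgeR and DESeq2, or those of spread, sex and the interaction under the alternatives run for each, with 0 to 0 when mice were left out (for the interaction, only WT 522). The same held for the delayed response genes (0 to 0). For spread, the absence of calls under each setting gives no support. A permutation p there cannot pass the adjustment unless many genes reach the smallest possible p together. The sign of the small genotype differences did change. With sex as a covariate the log2 fold change was 0.020 for Fos, 0.029 for Fosb, 0.060 for Egr1, 0.39 for Egr2 and 0.015 for Arc, with quantile normalisation it was 0.027 for Egr2 and 0.017 for Npas4, in edgeR 0.039 for Npas4 and -0.023 for Nr4a1, and in DESeq2 0.040 and -0.022. When each mouse was left out in turn it ranged from -0.37 to 0.086 for Fos, from -0.28 to 0.16 for Fosb, from 0.00 to 0.26 for Junb, from -0.14 to 0.13 for Egr1, from -0.50 to 0.48 for Egr2, from -0.25 to 0.023 for Arc, from -0.20 to 0.24 for Npas4, from -0.059 to 0.19 for Nr4a1, from -0.19 to 0.043 for Dusp1 and from 0.06 to 0.20 for Btg2. The number of other rapid response genes called, 1 in the main comparison, was 0 with no limit on the mean, 0 with quantile normalisation and 0 with sex as a covariate, and 0 to 2 when a mouse was left out. The number of pairs past the threshold, 40 of 45, was 9 to 42 when a mouse was left out, the lowest without WT 522, and 5 without the 2 farthest mice, and the median r of 0.78 was 0.60 to 0.81 and 0.57. Within the 6 USF-1 KO mice alone the median r was 0.63 and within the 6 WT mice 0.86, both chosen after seeing the data. Tests with fewer mice have less power, and the cause was not otherwise tested. WT 522 was the highest mouse for 8 of 10 genes with libraries rescaled to the same total and for 10 with quantile normalisation, also chosen after seeing the data. No paired analysis was possible because the labels give each mouse its own number, so that no number is shared between genotypes. Counts of Egr2 were low in some mice, 15 reads in WT 547, which limits its precision.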
